A study of Mus musculus with 9 samples.

Results

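Malectin, encoded by Mlec, and 9 genes of the N-glycan machinery of the endoplasmic reticulum (ER) were followed across 9 RNA-seq libraries of T follicular helper (Tfh) cells. The 10 genes (Mlec, Rpn1, Rpn2, Stt3a, Stt3b, Ddost, Dad1, Canx, Ganab and Uggt1) are 10 of the 54146 genes in the deposited table, and all 10 were measured in every library, with between 3282 and 17806 counts each. Mlec was selected on its difference between the genotypes in these libraries, where it had passed the test, and the other 9 were chosen by their place in the same pathway with the results known. The genotype differences of the members are therefore given as a description and carry no test. The cells were CD4+CXCR5+PD1+ Tfh cells sorted from Peyer's patches, the lymphoid follicles of the mouse small intestine. They came from mice with 1 mutant Tgfbr1 allele, labelled WT/mut (5 libraries, replicates 6 to 10), and from wild-type littermates, labelled WT (4 libraries, replicates 1, 3, 4 and 5). Tgfbr1 is the gene of a TGF-beta receptor chain, and the title of the series concerns how T cells' own TGF-beta responses bear on type 2 Tfh cells and allergy. The labels do not say what the mutation is, give no age, sex or batch, and do not say that each library is a separate animal, so every spread below is a spread between libraries that may be technical.

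N-glycosylation begins on the ER membrane, where a preformed glycan is built on a lipid carrier. The oligosaccharyltransferase, an enzyme with a catalytic STT3 subunit and several shared subunits, moves this glycan to asparagines of proteins entering the ER. Glucosidases then trim its glucoses, the lectin chaperone calnexin holds the trimmed protein while it folds, a glucosyltransferase returns misfolded proteins to calnexin, and malectin binds an early trimmed form of the glycan. T cells pass their antigen receptor and most of their surface receptors through this route.

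Promoter sequences are shown for 3 members, because Mlec and Ddost had separate ranges in opposite directions between the genotypes and Canx holds the one match to the ER stress element among the members. They are 100 bases from RefSeq promoter windows on GRCm38.p6, written 5′ to 3′ on the gene's strand, with the CCAAT box in capitals on either strand (CCAAT or ATTGG) and, in Canx, also the CCACG end of the ER stress element. The Mlec stretch lies 160 to 61 bases before the start at chr5:115158237-115158336 (minus strand), the Ddost stretch 150 to 51 bases before it at chr4:138304588-138304687 (plus strand), and the Canx stretch 190 to 91 bases before it at chr11:50325764-50325863 (minus strand). Uggt1, which also had separate ranges, is not shown, because the stretch 160 to 61 bases before its start meets an annotated exon of its own.
Mlec: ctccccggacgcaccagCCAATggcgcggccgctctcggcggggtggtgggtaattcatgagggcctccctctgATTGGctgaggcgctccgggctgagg
Ddost: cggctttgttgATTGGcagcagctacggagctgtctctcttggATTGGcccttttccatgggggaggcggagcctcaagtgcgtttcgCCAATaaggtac
Canx: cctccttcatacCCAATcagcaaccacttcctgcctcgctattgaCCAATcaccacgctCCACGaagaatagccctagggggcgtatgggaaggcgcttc
The windows hold 250 bases before and 50 after a start, and the 10 members have 11 of the 32851 windows, since Rpn2 has a pair of starts. The CCAAT box was found before the start in 9 of these 11 windows, in 9 genes (all but Uggt1), against 33.8% of all windows. The ER stress element, spelled CCAAT, then any 9 bases, then CCACG, and searched on both strands, was found before the start in the Canx window alone, against 0.113% of all windows. Its first letters are one of the CCAAT boxes of Canx. CCACG alone, also searched on both strands, was found before the start in 5 of these 11 windows, against 28.3% of all windows. In whole windows it was found in 8 of 11, against 32.8%. The other motifs, both known from the unfolded protein response, were ATTGG with 1 base of any kind and then CCACG, and TGACGTGG. Searched on both strands, neither was found in a member's window (0.0365% and 0.676% of all whole windows). A match of letters is a description and shows no binding.

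The libraries held 29488783 to 43872686 counts. WT/mut replicate 7 had the most genes detected (30143) and WT replicate 1 the fewest (17904). Tgfbr1 had a median of 82.9 CPM (counts scaled to library size) in WT/mut against 79.9 CPM in WT (log2 fold change -0.07 ± 0.21, edgeR adjusted p = 0.921), and total counts cannot tell a mutant from a wild-type allele. The Tfh gate was checked on 7 markers, whose summed level was 5640 to 6010 CPM in WT/mut against 5690 to 7100 CPM in WT (exact permutation p = 0.0476, adjusted p = 0.167 over 7 marker lists). Cd4, Cxcr5, Pdcd1, Bcl6 and Cd3e were present in every library with overlapping ranges. Icos (749 to 922 CPM in WT/mut, 1040.0 to 1230.0 CPM in WT; log2 fold change -0.52 ± 0.09, edgeR adjusted p = 0.0721) and Il21 (399 to 531 CPM, 532 to 772 CPM; -0.55 ± 0.12, edgeR adjusted p = 0.142) had separate ranges, with the lower values in WT/mut, and their part in the members' values was not tested. In sorted bulk cells, fewer cells of a type and less RNA per cell cannot be told apart. Libraries also differed in the level of long genes relative to short ones. Coverage along transcripts was not measured, and the source of this shift was not tested. For 686 tested genes with a longest transcript of 8000 bases or more, the median deviation from the gene's own mean, less that of 4471 genes of 2000 bases or less, was -0.39 on the log2 scale in WT replicate 1 and -0.17 in WT replicate 5. It was -0.03 and 0.10 in WT replicates 3 and 4, and 0.08, 0.27, 0.03, 0.15 and -0.03 in WT/mut replicates 6 to 10. Since the longest transcripts of the members run from 2120 bases (Ddost) to 9033 bases (Uggt1), member values are also given with this shift as a covariate.

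Mlec (ENSMUSG00000048578.11, chromosome 5, 115142981 to 115158179 on GRCm38, minus strand) encodes malectin, an ER membrane lectin for glucosylated glycans that associates with ribophorin I. Its levels in WT/mut replicates 6 to 10 were 175, 185, 193, 192 and 173 CPM. In WT replicates 1, 3, 4 and 5 they were 108, 96.7, 131 and 106 CPM. Every WT/mut library was above every WT library, with a gap from 131 to 173 CPM, and the 5 WT/mut values lay closer together (SD 9.42) than the 4 WT values (SD 14.6). The group means were 184 and 110 CPM, and the edgeR log2 fold change of WT/mut over WT was 0.73 ± 0.10 (SE), or 1.66-fold. This contrast put Mlec in the set (edgeR adjusted p = 0.0321 over all genes), so the value supports nothing further. Mlec was 1 of 10 members called, where 0.122% of the 15521 tested genes were called (0.0322% higher and 0.0902% lower in WT/mut). DESeq2, which called 486 genes in all, gave adjusted p = 1.55e-09 for Mlec and 0.0353 for Uggt1, and so called 2 of the 10. Nothing is read from these counts. Its fold change was 0.66 ± 0.12 with the long-gene shift as a covariate, and 0.67 to 0.83 when any 1 library was left out.

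The ratio of Mlec to Rpn1, its partner's gene, was also separate between the groups, and a ratio within a library does not depend on scaling. Mlec was chosen on these same values, so its ratio, share and rank are a description and support nothing further. The CPM ratio was 0.641, 0.840, 0.627, 0.749 and 0.619 in WT/mut replicates 6 to 10, and 0.349, 0.336, 0.481 and 0.395 in WT replicates 1, 3, 4 and 5. Mlec made up 7.45% to 8.09% of the summed CPM of the 10 members in WT/mut and 4.16% to 5.48% in WT. By CPM it ranked 6 or 7 of the 10 in each WT/mut library and 9 or 10 in each WT library. The summed CPM of all 10 members overlapped between the groups, at 2290 to 2420 CPM in WT/mut against 2330 to 2500 CPM in WT. Parts of this sum differed in opposite directions. Mlec was higher in every WT/mut library, while the 6 oligosaccharyltransferase members summed to 1334 to 1525 CPM in WT/mut against 1533 to 1828 CPM in WT.

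**Figure D1:**
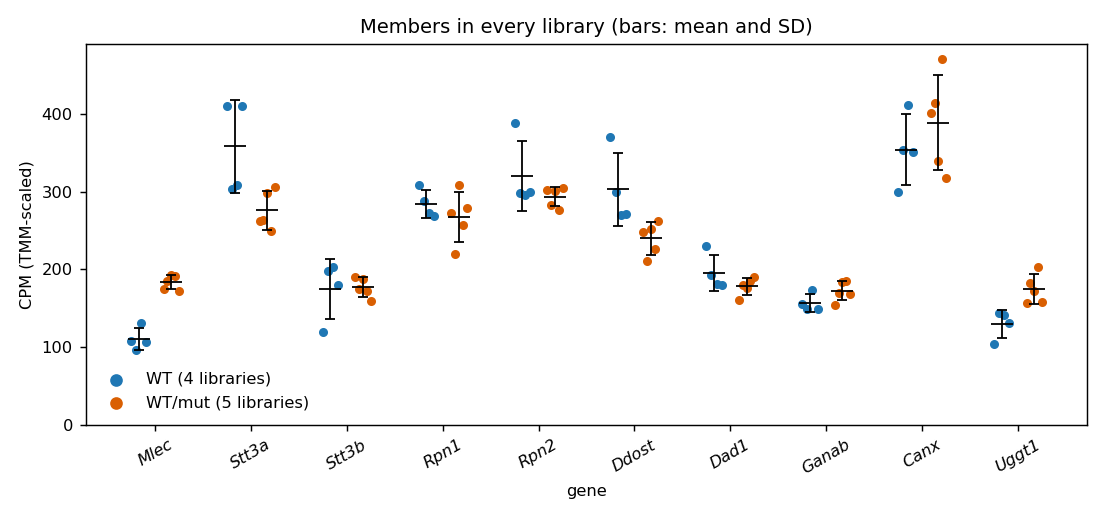
CPM (TMM-scaled, linear axis from 0) of the 10 members, 1 point per library, WT in blue (4 libraries) and WT/mut in orange (5 libraries), with bars for the mean and SD. Mlec and Uggt1 show WT/mut points above all WT points, and Ddost shows them below, with a narrow gap from 262.5 to 270.4 CPM.

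**Figure D2:**
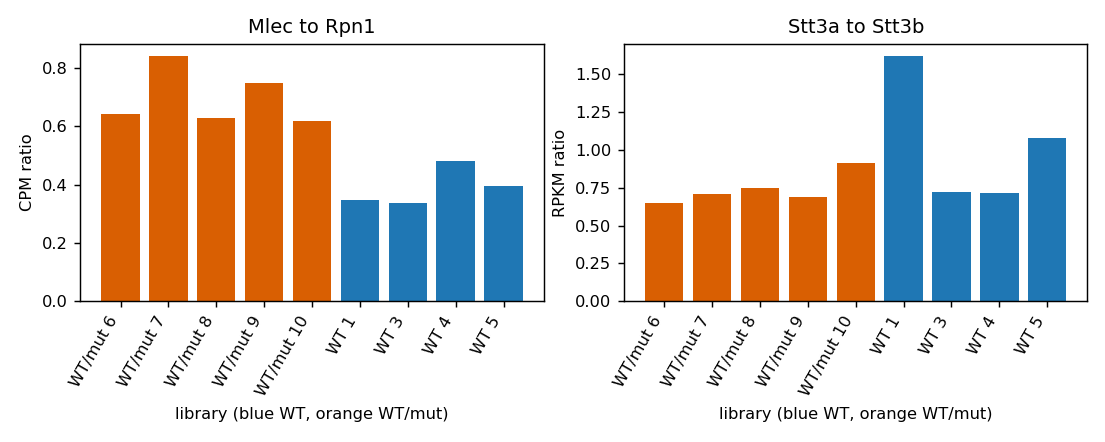
Bars give the ratio of Mlec to Rpn1 (left, CPM) and of Stt3a to Stt3b (right, RPKM) in each library, with linear axes from 0, WT/mut in orange and WT in blue. The Mlec to Rpn1 ratio is 0.619 or more in every WT/mut library and 0.481 or less in every WT library, while the Stt3a to Stt3b ratio overlaps and is highest in WT replicate 1, at 1.62.

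The catalytic subunits come next. Stt3a (ENSMUSG00000032116.18, chromosome 9, 36729344 to 36767679, minus strand) encodes the STT3 subunit that works beside the protein translocation channel. It stood at 262, 264, 298, 250.1 and 307 CPM in WT/mut replicates 6 to 10, and at 411, 303, 309 and 411 CPM in WT replicates 1, 3, 4 and 5. The WT values fall into a pair at 411 CPM (replicates 1 and 5) and a pair at 303 and 309 CPM, and WT/mut replicate 10 reached into the lower pair. The log2 fold change was -0.38 ± 0.12, and -0.16 ± 0.10 with the long-gene shift as a covariate. WT replicates 1 and 5 are also the libraries in which long genes were lowest, though Stt3a, with a longest transcript of 5867 bases, was highest there. The cause was not tested.

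Stt3b (ENSMUSG00000032437.10, chromosome 9, 115242581 to 115310421, minus strand) encodes the STT3 subunit that glycosylates sites the first one skips. Its levels were 159 to 191 CPM in WT/mut and 198, 203 and 179.6 CPM in WT replicates 3, 4 and 5, but 119.6 CPM in WT replicate 1. The groups overlapped, with a log2 fold change of 0.02 ± 0.14, which was -0.12 ± 0.09 without WT replicate 1 and -0.22 ± 0.13 with the long-gene shift as a covariate. Per exon length, the Stt3a to Stt3b ratio was 0.648 to 0.911 in WT/mut, 0.724 and 0.717 in WT replicates 3 and 4, 1.08 in WT replicate 5 and 1.62 in WT replicate 1. The ratio spanned a wider range in the WT libraries, through replicates 1 and 5, and this difference in spread was not tested.

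The 4 other subunits among the members had log2 fold changes below 0. Ddost (ENSMUSG00000028757.4, chromosome 4, 138304730 to 138312628, plus strand) encodes a subunit of the core complex. It was measured at 249, 211, 252, 227 and 262.5 CPM in WT/mut and at 371, 301, 270.4 and 271 CPM in WT replicates 1, 3, 4 and 5. All WT/mut values were below all WT values, by a margin of 262.5 against 270.4 CPM that is small beside the spread within groups (SD 20.9 and 47.1). Its log2 fold change was -0.34 ± 0.11, and -0.22 ± 0.10 without WT replicate 1, the highest library. With the long-gene shift as a covariate it was -0.13 ± 0.09.

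Rpn1 (ENSMUSG00000030062.7, chromosome 6, 88084482 to 88105304, plus strand) encodes ribophorin I, which hands some membrane proteins to the enzyme. It was at 220.3 to 308 CPM in WT/mut against 269 to 309 CPM in WT (-0.09 ± 0.10, and 0.05 ± 0.10 with the long-gene shift as a covariate). The ranges overlapped, with WT/mut replicates 7 and 9 (220.3 and 256.8 CPM) below every WT library. Rpn2 (ENSMUSG00000027642.15, chromosome 2, 157279017 to 157326319, plus strand) encodes ribophorin II. It lay within 277 to 305 CPM in WT/mut and 296 to 300.4 CPM in 3 WT libraries, with WT replicate 1 apart at 388 CPM. Its log2 fold change of -0.13 ± 0.10 was -0.02 ± 0.08 without that library and 0.04 ± 0.09 with the same covariate. Dad1 (ENSMUSG00000022174.8, chromosome 14, 54235479 to 54254104, minus strand), a small subunit first known as a defender against cell death, was at 160.2 to 190.0 CPM in WT/mut against 180.2 to 229.9 CPM in WT (-0.14 ± 0.10, and -0.03 ± 0.11 with the covariate). The summed CPM of the 6 oligosaccharyltransferase members was 1437, 1334, 1525, 1367 and 1502 CPM in WT/mut, and 1828, 1581, 1533 and 1611 CPM in WT replicates 1, 3, 4 and 5. These sums did not overlap either, though 1525 and 1533 CPM nearly meet. Each WT/mut library had more Mlec, and less of the summed subunits, than any WT library. The contrast that chose the members gave both values, and the sum was not fitted with a covariate, so nothing is read from them.

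Of the genes that act after transfer, Uggt1 had separate ranges. Uggt1 (ENSMUSG00000037470.14, chromosome 1, 36140027 to 36244720, minus strand) encodes the folding sensor that puts a glucose back on misfolded glycoproteins. It stood at 157, 183, 172, 204 and 158 CPM in WT/mut and at 104, 144, 142 and 131 CPM in WT replicates 1, 3, 4 and 5. Every WT/mut library exceeded every WT library, and the lowest value was again that of WT replicate 1. The log2 fold change was 0.43 ± 0.12, 0.34 ± 0.10 without WT replicate 1, and 0.22 ± 0.11 with the long-gene shift as a covariate.

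Canx (ENSMUSG00000020368.15, chromosome 11, 50293961 to 50325673, minus strand) encodes calnexin and had the highest CPM of the set. It varied from 318 to 472 CPM in WT/mut and from 300.3 to 412 CPM in WT, a wide overlap (0.14 ± 0.13, and -0.10 ± 0.12 with the long-gene shift as a covariate). Ganab (ENSMUSG00000071650.5, chromosome 19, 8898071 to 8916672, plus strand) encodes the catalytic subunit of glucosidase II, which trims the inner glucoses and so makes and ends calnexin's substrate. It was at 155 to 186 CPM in WT/mut against 149 to 173 CPM in WT (0.14 ± 0.09, and 0.09 ± 0.10 with the covariate). With that covariate, chosen after the data were seen, Rpn1, Rpn2, Stt3b and Canx thus changed sign, and the other 6 members kept theirs. The values of Rpn1, Rpn2, Canx, Dad1 and Ganab with it lay within their SE of 0, so nothing is read from these signs.

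In all, 2 members had separate ranges with WT/mut higher (Mlec and Uggt1) and 1 with WT/mut lower (Ddost), where 2.09% and 2.38% of all tested genes had (4.46% in either direction). The same 3 were separate with library size as the only scaling. Of the 10 log2 fold changes 5 were positive and 5 negative, with a median of -0.04 against 0.00 over all tested genes. Without Mlec the other 9 ran from -0.38 to 0.43. The contrast that chose the members also gave these counts, so nothing is read from them.

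Levels were then compared between members per length, as RPKM over all annotated exons, a comparison between genes and not between genotypes. The order over the 9 libraries was Ddost (126.5 ± 21.9 RPKM, SD), Canx (79.7 ± 11.7), Rpn2 (69.0 ± 7.28), Rpn1 (61.0 ± 5.99), Dad1 (47.5 ± 4.80), Stt3b (41.7 ± 5.97), Stt3a (35.0 ± 6.67), Ganab (30.4 ± 2.55), Mlec (25.2 ± 6.69) and Uggt1 (12.1 ± 2.30 RPKM). Neighbours were compared by a two-sided exact sign-flip permutation test over the 9 libraries with Benjamini-Hochberg adjustment over the 9 pairs. The p covers the spread between libraries and not the choice of length, and the same values set which genes were neighbours. The test is not read for the pairs with Mlec, whose values chose it, and 3 of the other 7 pairs differed. Ddost exceeded Canx in 9 of 9 libraries, by 0.66 on the log2 scale (exact permutation, adjusted p = 0.0117). Rpn1 exceeded Dad1 in 9 of 9, by 0.36 (exact permutation, adjusted p = 0.0117). Rpn2 was above Rpn1 in 8 of 9 (0.18, exact permutation, adjusted p = 0.0176).

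The remaining neighbours did not differ beyond their spread, namely Canx and Rpn2 (0.20, exact permutation, adjusted p = 0.127), Dad1 and Stt3b (0.20, exact permutation, adjusted p = 0.105), Stt3b and Stt3a (0.26, exact permutation, adjusted p = 0.127), and Stt3a and Ganab (0.19, exact permutation, adjusted p = 0.156). Per exon length, then, the folding sensor was the scarcest transcript of the set and a core transferase subunit the most abundant. The order depends on the length used. By coding length Dad1, with 339 coding bases, came first and Mlec, with 873 coding bases in a longest transcript of 5955, had rank 4, while Uggt1 stayed last. Pairs that differed above were then reversed, with Dad1 above Rpn1 (rank 6) and Canx (rank 2) above Ddost (rank 3). Rpn2 (rank 5) stayed above Rpn1. Mlec was nearer to Ganab in WT/mut than in WT. The contrast that chose Mlec also gave this, so nothing is read from it. In WT/mut Mlec was at 30.6 ± 1.57 RPKM, beside 31.6 ± 2.29 for Ganab, and above Ganab in replicate 6. In WT it was at 18.4 ± 2.42 RPKM, beside 28.8 ± 2.04 for Ganab. Uggt1 was at 13.6 ± 1.51 RPKM in WT/mut and 10.1 ± 1.43 RPKM in WT, below Mlec in every library.

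**Figure D3:**
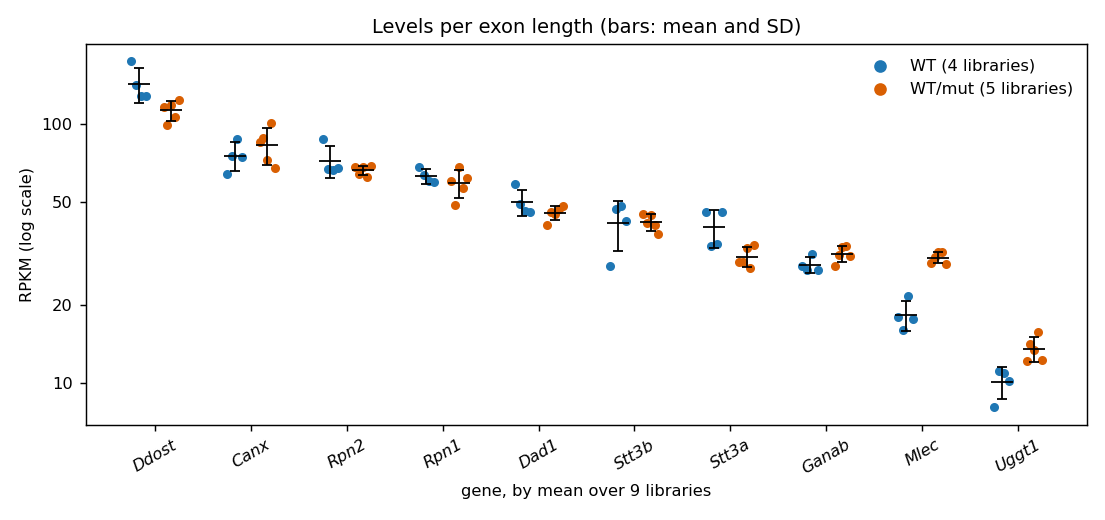
RPKM over all annotated exons (log axis) of the 10 members in order of their mean over 9 libraries, 1 point per library, WT in blue and WT/mut in orange, bars for the mean and SD. Levels run from 126.5 RPKM for Ddost to 12.1 RPKM for Uggt1, and the points of Stt3b and Stt3a overlap.

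Within the groups, the members did not vary as 1 set. Pearson's r was computed for all 45 pairs on log2 CPM after each group's mean was subtracted, with exact permutation of libraries within groups. Of the 45 values 22 were positive and 23 negative, and 2 pairs passed after adjustment over the 45 pairs. Rpn1 and Ddost varied together (r = 0.79, exact permutation p = 0.00208, adjusted p = 0.0469; rho = 0.93, exact permutation adjusted p = 0.0625; r = 0.98 without the 2 libraries farthest from the median of Rpn1). Rpn2 and Uggt1 varied in opposite directions (r = -0.91, exact permutation p = 0.00208, adjusted p = 0.0469; rho = -0.83, exact permutation adjusted p = 0.0625; r = -0.81 without the 2 farthest libraries). Neither passed by rho. Without 1 library at a time, r stayed between 0.77 and 0.87 for Rpn1 with Ddost and between -0.94 and -0.90 for Rpn2 with Uggt1. No pair passed then, but with 8 libraries a single pair cannot go below an adjusted p of 0.0625. Of the 13 pairs with an unadjusted p under 0.05, all but Mlec with Ganab were positive within the subunits Rpn1, Rpn2, Ddost, Dad1 and Stt3a, positive within Canx, Uggt1 and Stt3b, or negative between them. Rpn2 and Ddost were at r = 0.90 (exact permutation p = 0.0174, adjusted p = 0.112; rho = 0.77, exact permutation p = 0.0174, adjusted p = 0.156; r = 0.73 without the 2 farthest libraries). Stt3a and Canx were at r = -0.76 (exact permutation p = 0.00556, adjusted p = 0.0703; rho = -0.68, exact permutation p = 0.0208, adjusted p = 0.156; r = -0.81 without the 2 farthest libraries). WT replicate 1, where long genes were lowest, was highest in Rpn1, Rpn2, Ddost and Dad1 and lowest in Canx, Stt3b and Uggt1 among all 9 libraries. The part of the long-gene shift in these correlations was not tested.

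Mlec had weak values with both sides of this division, from -0.36 to -0.12 with the 5 subunits and 0.20, 0.28 and 0.45 with Stt3b, Uggt1 and Canx. Its strongest relation among the members was with Ganab (r = 0.83, exact permutation p = 0.00625, adjusted p = 0.0703; rho = 0.88, exact permutation adjusted p = 0.0938; r = 0.85 without the 2 farthest libraries). Ganab ranked 70 among the 15515 genes compared with Mlec in this way, ahead of Canx (rank 1958) and Uggt1 (rank 3940). The genes most like Mlec over the 9 libraries, as a description with no test, were RP24-414B1.2 (r = 0.933), Far2 (0.926), Galnt10 (0.910), a gene with a clone-based name (0.906), Akr1c19 (0.900) and Paqr8 (0.900). Galnt10, which encodes an enzyme that starts O-glycans in the Golgi, was the most abundant of them, with a mean of 5.04 log2 CPM. RP24-414B1.2 and Akr1c19 had means of -1.72 and -1.01 log2 CPM, where few reads set each value.

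**Figure D4:**
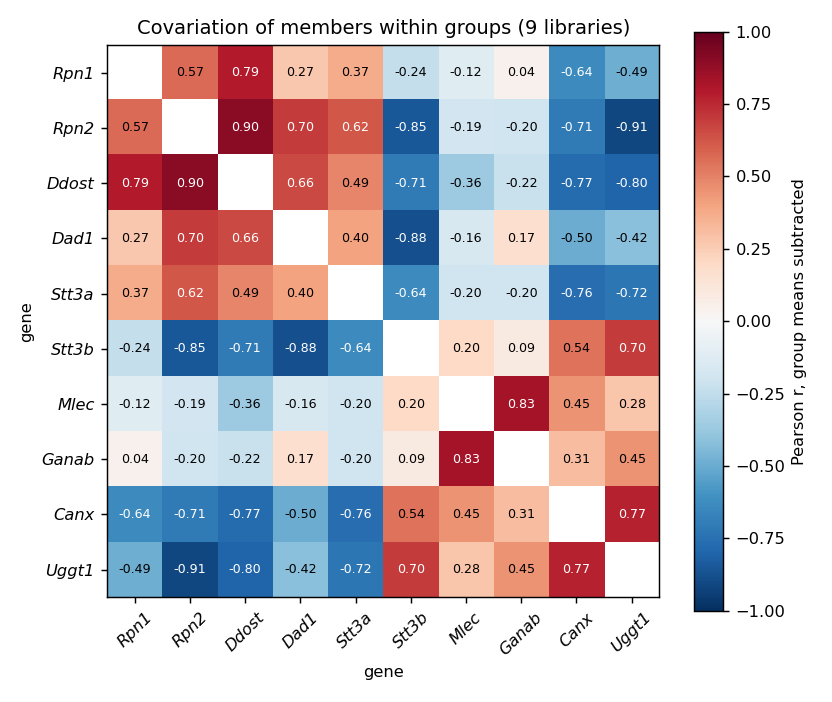
Pearson's r of log2 CPM between members over 9 libraries after subtraction of group means, on a colour scale from -1 to 1. The subunits Rpn1, Rpn2, Ddost, Dad1 and Stt3a are positive among themselves and negative with Canx, Uggt1 and Stt3b, and Mlec is highest with Ganab at 0.83.

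The rest of the pathway was read from 7 lists of 103 genes, of which 102 were tested. With edgeR none passed over all genes (0 of 102, where 0.122% of all tested genes passed), and 18 had an unadjusted p under 0.05, 5 higher and 13 lower, where 12.2% of all tested genes had (5.69% higher and 6.46% lower). DESeq2, which called 486 genes in all, called 3 in these lists (Hsp90b1 and St6gal1 higher, Ssr4 lower). Limma-voom, which called 18 genes in all, called 0. Of the 102 genes 1 had separate ranges with WT/mut higher (Hsp90b1) and 2 with WT/mut lower (Alg5 and Ssr4). Over all tested genes the shares were 2.09% and 2.38%. The lowest p was that of Hsp90b1, the ER chaperone GRP94, at 413, 439, 375, 448 and 366 CPM in WT/mut and 293, 319, 285 and 270 CPM in WT replicates 1, 3, 4 and 5. Every WT/mut library was above every WT library, with a log2 fold change of 0.49 ± 0.09 (edgeR adjusted p = 0.0936, and 0.41 ± 0.11 with the long-gene shift as a covariate). DESeq2 gave Hsp90b1 an adjusted p of 5.77e-05, and over all 20 alternatives its adjusted p ran up to 1.0, with DESeq2 the 1 that passed.

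Among the other oligosaccharyltransferase subunits, 0 of 6 passed with edgeR and 1 (Ostc, lower) had an unadjusted p under 0.05. Magt1 (0.22 ± 0.13, edgeR adjusted p = 0.509) and Tusc3 (0.24 ± 0.12, edgeR adjusted p = 0.431), the oxidoreductase subunits that work with STT3B, had positive values. Ostc, which joins the STT3A complex to the translocation channel, had a negative one (-0.29 ± 0.13, edgeR adjusted p = 0.390), and the small subunit Ost4 was at 0.01 ± 0.10 (edgeR adjusted p = 0.971). The median of the 6 was 0.07.

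In the assembly of the lipid-linked glycan, 0 of 23 passed with edgeR, 14 had negative values and the median was -0.10. Dpagt1, the first enzyme of the pathway, stood at -0.10 ± 0.14 (edgeR adjusted p = 0.803). Alg5, which makes the glucose donor, had the lowest p of the list (-0.36 ± 0.13, edgeR adjusted p = 0.325), with all 5 WT/mut values (49.2 to 60.9 CPM) below the 4 WT values (62.1 to 86.4 CPM). The mannosyltransferase gene Alg3 was at -0.39 ± 0.17 and Alg13 at 0.48 ± 0.22 (edgeR adjusted p = 0.406 and 0.409).

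In glycan trimming and lectin chaperones, 0 of 13 tested genes passed with edgeR, and the median was 0.00. The glucosidase genes Mogs (-0.11 ± 0.12) and Prkcsh (0.08 ± 0.15, the regulatory partner of Ganab) and the disulfide isomerase gene Pdia3 (-0.08 ± 0.12), which works with calnexin, had edgeR adjusted p between 0.715 and 0.858. Calr, which encodes the soluble counterpart of calnexin, was at 0.22 ± 0.13 (edgeR adjusted p = 0.511) with means of 672 ± 49.9 CPM in WT/mut against 577 ± 119 CPM in WT (SD). Selenof, listed in the table as Sep15 and encoding a partner of Uggt1, was at -0.29 ± 0.10 (edgeR adjusted p = 0.329), and Man1c1, an early mannosidase gene, at 0.36 ± 0.16 (edgeR adjusted p = 0.389). Lman2, which encodes a cargo lectin of the early secretory pathway, was at -0.36 ± 0.20 (edgeR adjusted p = 0.477). Uggt2, the paralogue of Uggt1, had at most 24 counts in a library and none in 4 of the 9.

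Glycan-dependent degradation genes had 0 of 12 called with edgeR, 9 negative values and a median of -0.16, with Edem2 (-0.42 ± 0.17), Derl2 (-0.43 ± 0.19) and Ngly1 (-0.29 ± 0.13) lowest in p (edgeR adjusted p from 0.366 to 0.403). ER chaperone and unfolded protein response genes had 0 of 20 called by edgeR, 1 by DESeq2 (Hsp90b1) and a median of -0.08. Besides Hsp90b1, the main ER chaperone gene Hspa5 (-0.14 ± 0.12, edgeR adjusted p = 0.634) and the response factor gene Xbp1 (-0.05 ± 0.11, edgeR adjusted p = 0.886) were near 0, and Dnajb9 (-0.37 ± 0.14) and Herpud1 (-0.43 ± 0.19), targets of that response, had negative values (edgeR adjusted p = 0.349 and 0.391). The translocon list had 0 of 15 called by edgeR, 1 by DESeq2 (Ssr4) and a median of -0.15. Sec61a1, the channel itself, was at 0.02 ± 0.08 (edgeR adjusted p = 0.953). Ssr4, of the complex beside the channel, had separate ranges of 93.1 to 104 CPM in WT/mut against 110.0 to 117 CPM in WT (-0.22 ± 0.08, edgeR adjusted p = 0.339, DESeq2 adjusted p = 0.00766). Sec63, which helps proteins through the channel, was at -0.37 ± 0.14 (edgeR adjusted p = 0.354) and Spcs1, of the signal peptidase, at -0.28 ± 0.12 (edgeR adjusted p = 0.391).

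Golgi processing had the highest list median, 0.15, with 9 of 13 values positive and 0 called by edgeR. St6gal1, which caps glycans with sialic acid, was at 187 to 244 CPM in WT/mut against 125 to 190 CPM in WT (0.48 ± 0.13, edgeR adjusted p = 0.246; DESeq2 adjusted p = 0.0325). The mannosidase gene Man2a1 was at 0.46 ± 0.15 (edgeR adjusted p = 0.291) and Man2a2 at 0.54 ± 0.29 (edgeR adjusted p = 0.461).

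**Figure D5:**
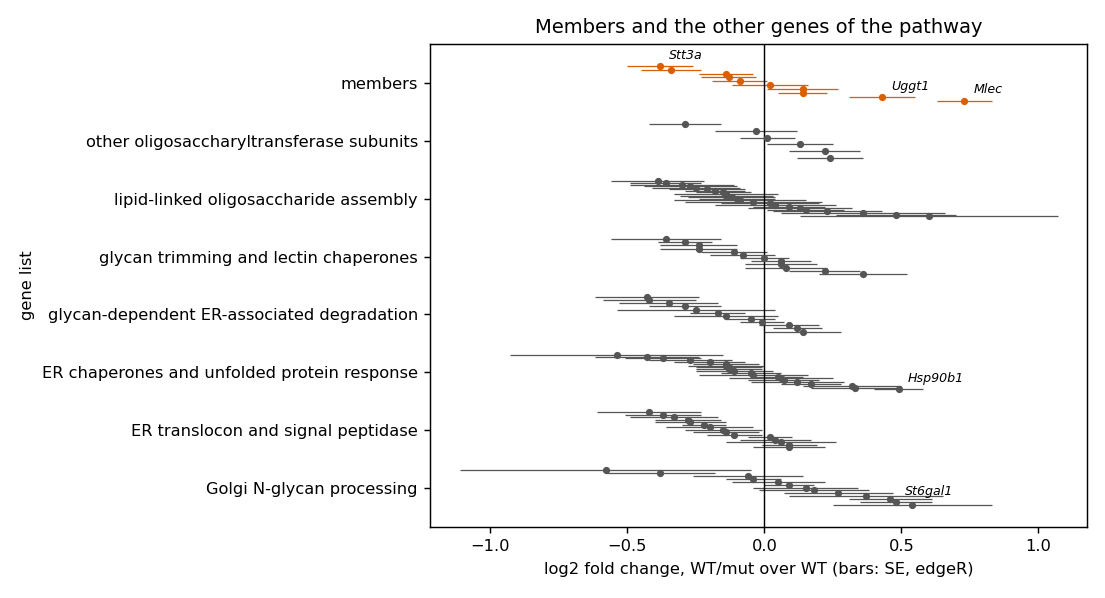
Log2 fold change of WT/mut over WT with its SE (edgeR) for the members (orange) and for the genes of 7 pathway lists (grey), 1 point per gene, sorted within each list and with Uggt2 left out for its low counts. Mlec at 0.73 lies right of every grey point, though the error bars of some reach it, Hsp90b1 is at 0.49, and no list lies wholly on 1 side of 0.

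Plasma cells are rich in this machinery, and their markers were read beside it. Of 14 plasma cell markers 11 had a higher mean in WT/mut, where 7786 of the 15521 tested genes had a positive log2 fold change. Tnfrsf17 and Fkbp11 were too low to be tested. Of the other markers 3 had separate ranges with WT/mut higher, where 2.09% of all tested genes had, and 0 passed with edgeR. Mean CPM, given with WT/mut first, was 0.185 against 0 for Tnfrsf17 and 0.597 against 0.0188 for Fkbp11. Prdm1 (18.1 against 9.46, log2 fold change 0.94 ± 0.3) and Mzb1 (9.74 against 4.43, 1.14 ± 0.45) were higher in WT/mut with overlapping ranges. So was Pou2af1 (141 against 91.2, 0.63 ± 0.22). The markers with a lower mean in WT/mut were Sdc1 (1.73 against 2.00), Txndc5 (120 against 122) and Ighm. The summed level was 2390 to 3370 CPM in WT/mut against 2150 to 2620 CPM in WT (exact permutation p = 0.0873, adjusted p = 0.167 over 7 marker lists), most of it Ighm, at a mean of 1730 and 1950 CPM. Jchain, Igha, Igkc and Iglc1 alone summed to 1270, 1370, 1080, 586 and 402 CPM in WT/mut replicates 6 to 10 and to 85.0, 138, 372 and 110 CPM in WT replicates 1, 3, 4 and 5, so the groups were separate in them. Within groups no member's correlation with the summed plasma cell marker level passed (r from -0.47 for Uggt1 to 0.40 for Rpn2, exact permutation adjusted p = 0.872 for each; rho from -0.45 to 0.35, exact permutation adjusted p = 1.0 for each). Ighm makes up most of that level, and the sum of the 4 genes alone was not tested within groups. Without the 2 libraries farthest in that level r was -0.57 for Uggt1 and 0.54 for Rpn2.

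With the level of those 4 genes as a covariate, the log2 fold change of Mlec was 0.51 ± 0.18 and that of Uggt1 0.25 ± 0.23. Stt3a was at -0.04 ± 0.22, Ddost at -0.05 ± 0.21, Stt3b at -0.44 ± 0.24 and Canx at -0.18 ± 0.24. Rpn1 (0.05 ± 0.21), Rpn2 (0.06 ± 0.19), Dad1 (0.11 ± 0.18) and Ganab (0.06 ± 0.17) were positive. This covariate was chosen after the data were seen. The groups were separate in it, so it cannot be told apart from genotype. With the whole plasma cell list as a covariate, Mlec was at 0.70 ± 0.14, Uggt1 at 0.57 ± 0.16 and Stt3a at -0.44 ± 0.17. Ddost was then at -0.38 ± 0.16, Stt3b at 0.03 ± 0.21 and Canx at 0.22 ± 0.18. B cell markers (277 to 652 CPM in WT/mut against 136 to 360 CPM in WT, 12 of 12 with a higher mean in WT/mut) and red cell markers (401 to 870 CPM and 98.5 to 282 CPM, 6 of 6) did not pass, with exact permutation adjusted p of 0.167 and 0.111, though the red cell ranges were separate. Their part in the members' values was not tested.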

How the data were processed

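Reads of 9 libraries, made from 300 pg of RNA each with a SMART-Seq kit that does not mark the strand (per the labels' protocols), were processed by the authors into expected counts per gene, the unit of the deposited table. The submitters' processing notes name cutadapt 2.10, STAR 2.5.3, RSEM 1.3.0, DESeq2 and mm10, with the annotation used not given in the sources used here. An expected count splits shared reads by a model, and 11.1% to 18.3% of a library's values were not whole, so all were rounded. Genes overlapping Rpn1, Rpn2, Stt3b or Uggt1 had at most 25 counts in a library.

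The test was edgeR 4.0.16 in R 4.3.3 (quasi-likelihood F test, robust, TMM, filterByExpr with minimum count 10 and minimum total 15) over 15521 genes, with Benjamini-Hochberg adjustment and a threshold of 0.05. SE is the absolute log2 fold change over the square root of F. CPM uses TMM-scaled library sizes, RPKM divides it by exon length in GENCODE M21 (GRCm38, the assembly of mm10; 54079 of 54146 identifiers found, versions ignored), and log2 CPM has a prior count of 2. Single values were compared by exact two-sided permutation over all splits into 5 and 4 libraries (smallest p 0.00794), 512 sign patterns (smallest p 0.00391) or 2880 permutations within groups. The fit was tested on simulated data.

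Members, lists and tests were chosen with earlier results of these data known. Named were the members, Tgfbr1, 14 pathway genes by name, the 3 genes of lowest p and any called gene per list, and the 6 genes most like Mlec (1 has a clone-based name and is given without it); single marker genes were picked for naming once their levels were known. The alternatives tried included DESeq2 1.42.0, limma-voom (limma 3.58.1), other scalings, filters, lengths and covariates, and leaving out libraries.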

Additional observations from a re-analysis of the deposited data

Results flagged for a closer look

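Of 110 groups of 4 or 5 values examined, 6 held a library far from the others, where chance gives about 1 in 20. Rpn2 was at 388 CPM in WT replicate 1, against 296 to 300.4 CPM in the other WT libraries. Edem2 was at 252 CPM in that library too, against 147 to 157 CPM in the others. Uggt2 was at 0.439 CPM in WT replicate 5 and had no count in the other WT libraries. Dpagt1 was at 21.4 CPM in WT/mut replicate 10, against 27.6 to 28.8 CPM in the other WT/mut libraries. Akr1c19 was at 3.55 CPM in WT replicate 4, against at most 0.538 CPM in the other WT libraries. The stroma and endothelium marker sum was 225 CPM in WT/mut replicate 8, against 167 to 180 CPM in the other WT/mut libraries.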

How the results depend on the processing

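The log2 fold change of Mlec kept its sign in all 20 alternatives, from 0.51 (antibody genes and Jchain as a covariate) to 0.83 (without WT replicate 4), but Mlec passed the threshold in 7 of them; of the 9 fits without 1 library it passed only without WT replicate 4 (edgeR adjusted p = 0.0134), with 0.0583 to 0.0927 in the others. Stt3a (-0.45 to -0.04), Ddost (-0.39 to -0.05), Uggt1 (0.22 to 0.57) and Ganab (0.06 to 0.20) kept their signs too, while the ranges of Rpn1, Rpn2, Stt3b, Dad1 and Canx spanned 0. The count of called genes, 19, was 486 with DESeq2, 1 with the plasma cell marker level as a covariate, 1 with detected genes as one, and 2 to 23 without 1 library. Among alternatives chosen after the data were seen it was 0 with the antibody genes and Jchain as a covariate (454 genes at an unadjusted p under 0.05), 3 with the long-gene shift, and 1 without WT/mut replicate 7 and WT replicate 1. The causes were not tested, beyond the fewer libraries or the added term in each fit. Pathway list calls, 0 with edgeR, were 3 with DESeq2. Covarying pairs, 2, were 1 with library size only and 0 to 0 without 1 library, where a single pair cannot pass. Scaling by library size alone moved the median of all genes by 0.034 (log2). No paired analysis was possible because the groups share no replicate number. Depth was not limiting for the members, each with at least 3282 counts.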
